A study of Mus musculus with 4 samples.

Results

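The perineuronal net and the hyaluronan matrix around it were followed through 8 genes in the cervical spinal cord of NC/Nga mice, namely Acan, Bcan, Ncan, Vcan, Hapln1, Hapln4, Tnr and Has2. They were taken by name, and every array probe annotated with 1 of these 8 symbols was used, which gave 16 probes for 8 of the 19057 genes named on the array. NC/Nga is an inbred strain in which a skin disease like human atopic dermatitis appears in an ordinary animal room, while mice kept free of specific pathogens (SPF) stay clear of it. Total RNA of the cord was measured on 4 Illumina BeadChip arrays, in 2 groups: conventionally housed NC/Nga males of 9 weeks with the dermatitis phenotype (2 arrays) and SPF-housed NC/Nga males of 9 weeks with a normal phenotype (2 arrays). Both groups share strain, sex, age and tissue, so the room and the skin disease cannot be told apart as sources of a difference. The labels do not say whether an array holds 1 mouse or a pool, and p-values measure only the spread between these arrays, which may be technical.

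A perineuronal net is a lattice of extracellular matrix that wraps the cell body and the proximal dendrites of some neurons. Its backbone is hyaluronan, a long sugar chain spun out at the cell surface by hyaluronan synthases. Chondroitin sulfate proteoglycans of the lectican family (aggrecan, brevican, neurocan and versican) bind that chain, link proteins of the Hapln family clamp them to it, and tenascin-R ties lecticans together at their far ends. In the spinal cord such nets are known around motor neurons of the ventral horn and around a share of parvalbumin-containing interneurons, whereas brevican, neurocan and versican also occur in the looser matrix between cells, and brevican and versican at nodes of Ranvier.

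The genes lie in pairs. In the RefSeq gene table of assembly GRCm38.p6, each of the 4 lectican genes has a link protein gene as its next protein-coding neighbour: Acan stands beside Hapln3, Bcan beside Hapln2, Ncan beside Hapln4 and Vcan beside Hapln1. Of the 8 genes studied, 6 have such a neighbour, and Tnr and Has2 have none. RefSeq start regions (build GRCm38.p6, C57BL/6J sequence, 250 bases before to 50 after the start) were matched for 6 of the 8 genes. Those of the 3 lectican genes with signal above background are printed here, 5′ to 3′ as the table gives them for the gene's strand, because the results below turn on these genes and because the 3 regions differ in make-up. Capitals mark matches, on either strand, to 3 core promoter motifs, GGGCGG (GC box), CCAAT and TATAAA, and adjoining capitals can be overlapping matches.
Acan, chr7:79052976-79053275, plus strand: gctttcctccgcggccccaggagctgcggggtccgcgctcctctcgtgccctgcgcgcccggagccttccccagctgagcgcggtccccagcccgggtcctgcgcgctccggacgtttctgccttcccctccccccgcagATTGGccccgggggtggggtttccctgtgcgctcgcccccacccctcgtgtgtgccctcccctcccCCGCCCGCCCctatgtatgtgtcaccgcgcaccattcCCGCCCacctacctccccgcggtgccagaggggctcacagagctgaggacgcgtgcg
Bcan, chr3:88000307-88000606, minus strand: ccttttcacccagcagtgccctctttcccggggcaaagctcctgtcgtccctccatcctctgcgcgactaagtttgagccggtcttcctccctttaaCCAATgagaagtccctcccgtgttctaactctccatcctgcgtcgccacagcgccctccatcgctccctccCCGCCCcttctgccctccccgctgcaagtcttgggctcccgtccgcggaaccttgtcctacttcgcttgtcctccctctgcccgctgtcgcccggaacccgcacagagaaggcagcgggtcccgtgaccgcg
Ncan, chr8:70120795-70121094, minus strand: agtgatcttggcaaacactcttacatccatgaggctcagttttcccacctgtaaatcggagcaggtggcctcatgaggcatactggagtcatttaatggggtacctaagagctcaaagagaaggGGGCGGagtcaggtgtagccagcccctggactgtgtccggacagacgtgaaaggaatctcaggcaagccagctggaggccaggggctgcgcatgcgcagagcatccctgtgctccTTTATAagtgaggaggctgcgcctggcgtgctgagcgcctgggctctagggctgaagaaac
The Acan region holds 31 CpG dinucleotides, 3 GC boxes, of which a pair overlaps, and 1 CCAAT match. The Bcan region holds 24 CpG dinucleotides, 1 GC box and 1 CCAAT match. The Ncan region holds 9 CpG dinucleotides, 1 GC box and, unlike the other two, 1 match to TATAAA. Over all 32851 start regions of this length the median is 7 CpG dinucleotides, 35.7% hold GGGCGG, 37.4% CCAAT and 13.6% TATAAA. The matches describe the letters only and do not show that a factor binds there.

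Signal above background on at least 2 arrays was found for 5 of the 8 genes. The deposited bead signals carry no fixed unit, and beside each stands a detection p-value, drawn against negative-control beads on the array; a probe with a detection p under 0.05 is called above background here. That limit lay at a signal of 117.8 and 119.7 on the conventional arrays and of 118.8 and 124.4 on the SPF arrays. Of the 16 probes, 6 and 7 were above it on the conventional arrays and 7 and 7 on the SPF arrays. Across the array 45.7% and 46.3% of all 45281 probes were above background on the conventional arrays and 45.3% and 44.9% on the SPF arrays, with median signals of 113.6 and 116.4 against 114.1 and 119.4.

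**Figure D1:**
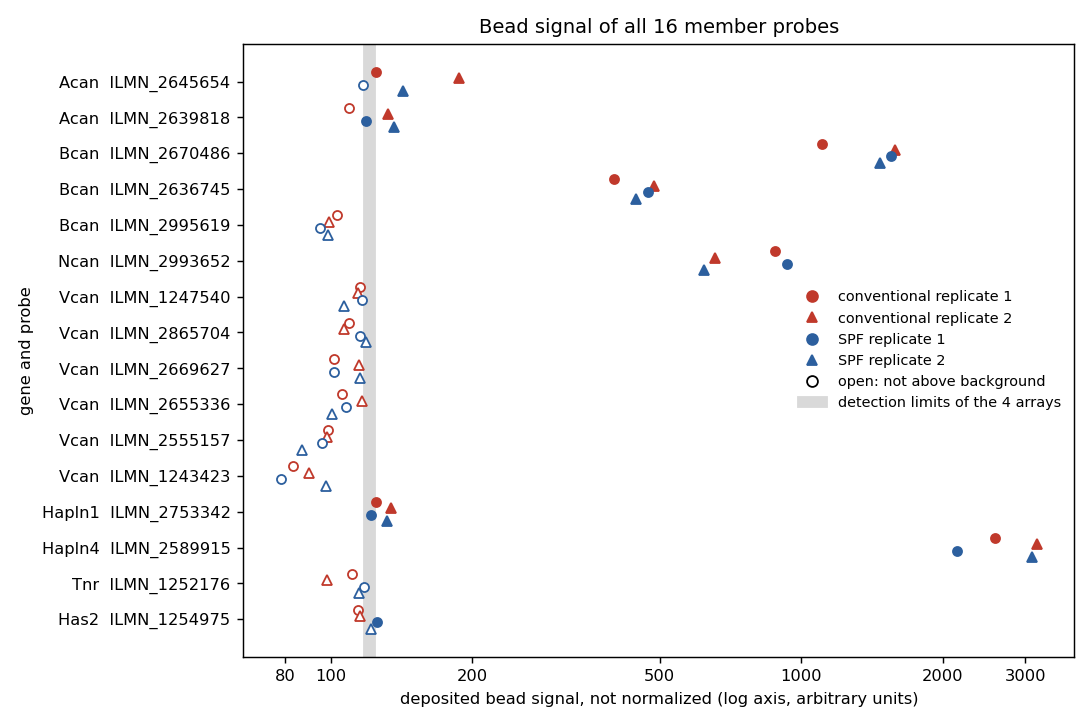
Deposited bead signal (log axis, arbitrary units, not normalized) of the 16 probes, with conventional arrays in red, SPF arrays in blue, replicate 1 as circles and replicate 2 as triangles. Open symbols are not above background, and the grey band spans the detection limits of the 4 arrays (117.8 to 124.4): the Hapln4 probe, 2 of 3 Bcan probes and the Ncan probe lie far to the right of it, and all 6 Vcan probes and the Tnr probe are open on all 4 arrays.

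Brevican, the lectican made mainly by glial cells of the adult nervous system, gave clear signal with 2 of its 3 probes. Probe ILMN_2670486 read 1106.5 and 1587.1 on the conventional arrays, against 1553.7 and 1474.9 on the SPF arrays. Probe ILMN_2636745 read 400.5 and 486.0 on the conventional arrays, against 472.8 and 446.2 on the SPF arrays. In both probes conventional replicate 1 was the lowest of the 4 arrays, conventional replicate 2 the highest, and the SPF arrays lay close together between them, so the groups overlapped. The third Bcan probe, ILMN_2995619, stayed between 94.9 and 102.9 on all 4 arrays and was at background, with detection p-values of 0.495 to 0.819.

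Neurocan, a lectican of developing and adult nervous tissue, read 879.9 and 657.6 on the conventional arrays, against 935.1 and 620.5 on the SPF arrays, with its single probe. The groups overlapped fully, with replicate 1 above replicate 2 in each.

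Hapln4, the brain-specific link protein also called Bral2, read 2579.4 and 3169.1 on the conventional arrays, against 2144.9 and 3102.5 on the SPF arrays. Each conventional array was above the SPF array of the same number, but conventional replicate 1 lay below SPF replicate 2, so the groups overlapped. Ncan and Hapln4, neighbours in the genome, thus ran opposite ways between the arrays of a group. Their signals are not compared with each other, because different probes bind with different strength.

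Aggrecan, the lectican that defines the dense nets around motor neurons and fast-spiking interneurons and is also a major component of cartilage, was close to the detection limit. Probe ILMN_2645654 read 124.8 and 187.2 on the conventional arrays, against 117.0 and 142.4 on the SPF arrays, and was above background on both conventional arrays and on 1 of 2 SPF arrays. Probe ILMN_2639818 read 109.4 and 132.4 on the conventional arrays, against 119.1 and 136.4 on the SPF arrays, and was above background on 1 of 2 conventional arrays and on both SPF arrays. Both probes read more on replicate 2 than on replicate 1 of each group, and they gave opposite orders of the group means.

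Hapln1, the link protein shared by cartilage and perineuronal nets, read 124.5 and 134.0 on the conventional arrays, against 121.5 and 131.4 on the SPF arrays. It was above background on all 4 arrays, by detection p-values of 0.00855 to 0.0353. SPF replicate 1 was the lowest of the 4 arrays and conventional replicate 2 the highest, and the groups overlapped.

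Versican, tenascin-R and the hyaluronan synthase gene Has2 could not be compared. The 6 Vcan probes read between 78.4 and 118.8, with detection p-values of 0.0705 or more, and none was above background on any array. The Tnr probe read 111.2 and 98.1 on the conventional arrays, against 117.9 and 114.8 on the SPF arrays, and its lowest detection p was 0.0566, on SPF replicate 1. The Has2 probe read 114.1 and 115.3 on the conventional arrays, against 125.2 and 121.5 on the SPF arrays. Only SPF replicate 1 was above background for Has2. A probe at background does not show that the transcript is missing: both probes of Snap25, an abundant synaptic gene, were at background on all 4 arrays (signals of 86.3 to 109.9), as was the probe of the neurofilament gene Nefl (102.1 to 113.3). These 2 genes were picked after their values were seen.

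The comparison asks whether net and hyaluronan matrix transcripts differ in the cord of mice with dermatitis. None of the 7 probes above background on at least 2 arrays passed limma's moderated linear model (Benjamini-Hochberg adjustment over 21065 probes, adjusted p = 0.99996 for each of the 7, n = 2 arrays per group), and none had an unadjusted p under 0.05. Over all 21065 probes 0 passed (0%), and 3.15% had an unadjusted p under 0.05. In 0 of the 7 probes did the groups stand apart, against 16.4% of all probes in which the conventional pair lay above the SPF pair and 14.5% in which it lay below. The values that follow are normalized log2 levels and their differences, conventional minus SPF, ± the standard error of the model.

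The Acan probe ILMN_2645654 had the largest difference of the 7. Its level was 5.27 and 6.65 on the conventional arrays, against 5.01 and 5.63 on the SPF arrays. The difference was 0.65 ± 0.44 (1.57-fold, 95% interval -0.38 to 1.68, unadjusted p = 0.184 in limma). It rested on conventional replicate 2: with that array left out the difference was -0.04, and with conventional replicate 1 left out 1.34. On signals without background correction the difference was 0.25. The other Acan probe had levels of 4.80 and 5.46 on the conventional arrays, against 5.07 and 5.46 on the SPF arrays, and a difference of -0.13 ± 0.28 (95% interval -0.79 to 0.53). The 2 probes of aggrecan therefore gave no common direction.

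**Figure D2:**
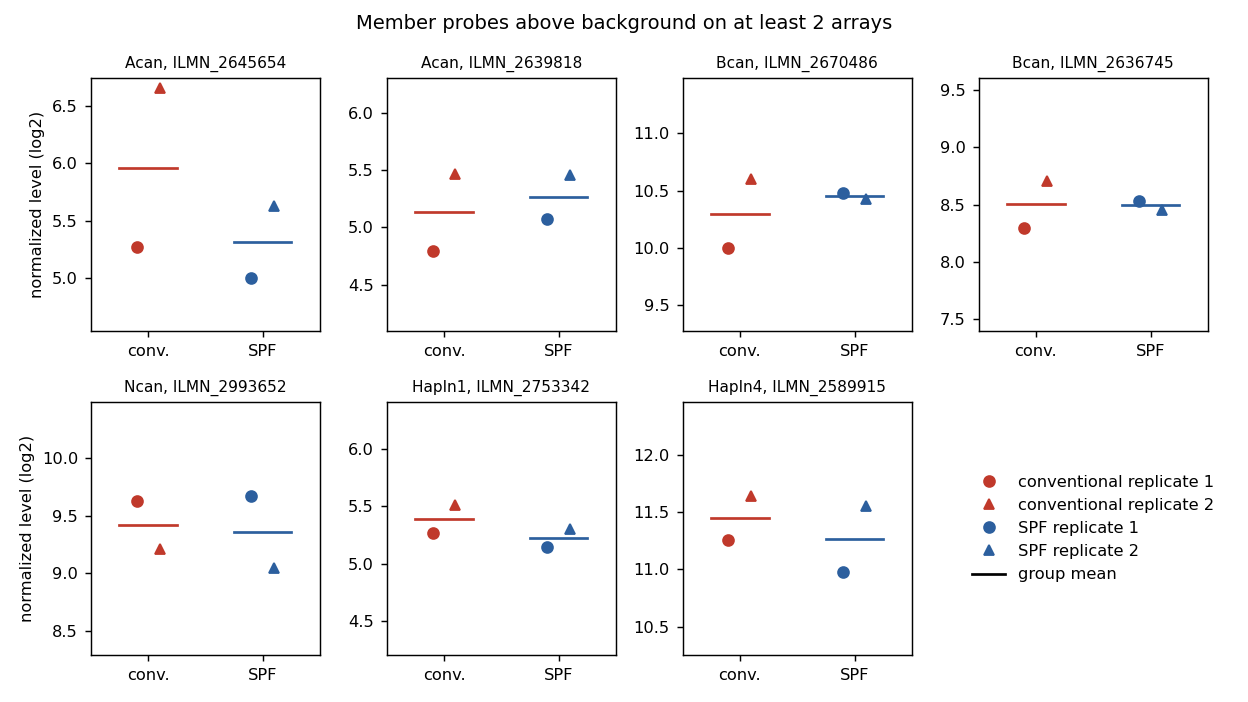
Normalized log2 level of the 7 probes above background on at least 2 arrays, 1 panel each, conventional arrays (red) left of SPF arrays (blue); circles are replicate 1, triangles replicate 2, and lines the mean of the 2 arrays. All panels span the same range of log2 units, and in all 7 the points of the groups overlap.

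For Bcan, probe ILMN_2670486 had levels of 10.00 and 10.60 on the conventional arrays, against 10.47 and 10.43 on the SPF arrays. The difference was -0.15 ± 0.20 (1.11-fold lower, 95% interval -0.61 to 0.30). Probe ILMN_2636745 had levels of 8.29 and 8.71 on the conventional arrays, against 8.53 and 8.46 on the SPF arrays, and a difference of 0.01 ± 0.19 (95% interval -0.42 to 0.44). The 2 probes ordered the conventional arrays alike, with a gap of 0.60 and 0.41 between them, and on the SPF arrays the gap was 0.05 and 0.07. Brevican was thus more uneven between the 2 conventional arrays than between the 2 SPF arrays, though with 2 arrays per group the spreads were not tested against each other.

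Ncan had levels of 9.62 and 9.22 on the conventional arrays, against 9.68 and 9.04 on the SPF arrays, and a difference of 0.06 ± 0.23 (95% interval -0.48 to 0.61). Hapln1 had levels of 5.26 and 5.52 on the conventional arrays, against 5.15 and 5.30 on the SPF arrays, and a difference of 0.17 ± 0.22 (95% interval -0.35 to 0.68). Hapln4 had levels of 11.26 and 11.64 on the conventional arrays, against 10.98 and 11.55 on the SPF arrays, and a difference of 0.19 ± 0.21 (1.14-fold, 95% interval -0.30 to 0.67). For these 3 genes the intervals lie between -0.48 and 0.68, and differences inside them cannot be told from none at this number of arrays. Hapln1 lay close to the detection limit, so its difference depends on the background step. Without background correction it was 0.05.

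**Figure D3:**
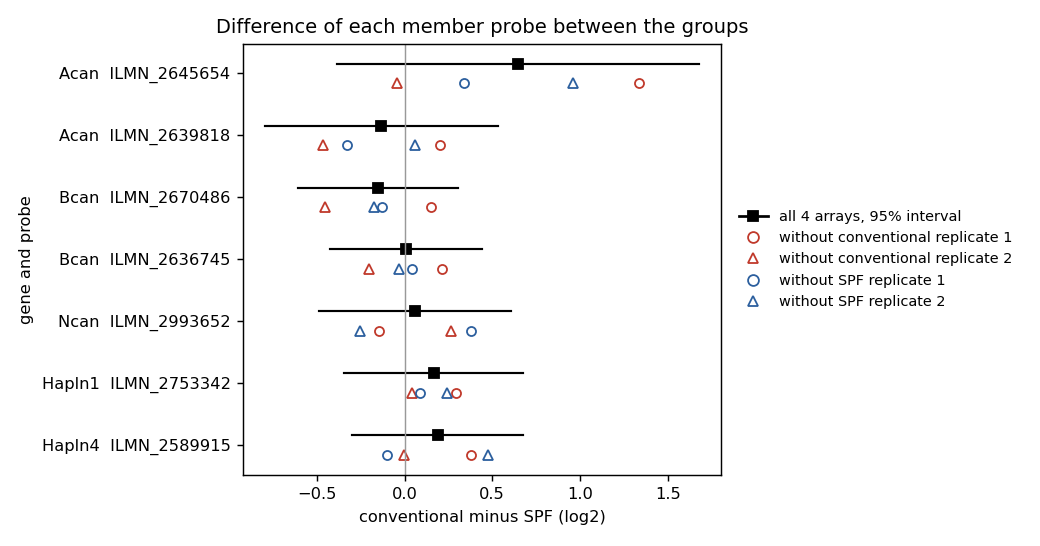
Difference between the groups (conventional minus SPF, log2) of the 7 probes: black squares with bars are the fit of all 4 arrays with its 95% interval, open symbols the difference with 1 array left out. All 7 intervals hold 0, and in 6 of the 7 probes the open symbols fall on both sides of 0; those of Hapln1 run from 0.04 to 0.29.

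In all 7 probes the gap between the 2 arrays of at least 1 group was larger than the difference between the group means, as it was for 79.6% of all 21065 probes. Replicate 2 lay on the same side of replicate 1 in both groups for 5 of the 7 probes, against 62.2% of all probes. It was above replicate 1 for the Acan probes (by 1.38 and 0.66 on the conventional arrays, against 0.62 and 0.39 on the SPF arrays), for Hapln4 (by 0.38 on the conventional arrays, against 0.57 on the SPF arrays) and for Hapln1 (by 0.25 on the conventional arrays, against 0.16 on the SPF arrays). For Ncan it was below, by -0.41 on the conventional arrays and -0.63 on the SPF arrays. The labels do not say that a replicate number marks a shared batch or day.

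Genes whose levels ran most like those of each gene over the 4 arrays were sought among 89 matrix and net-related genes, by the root mean square difference of log2 levels, each gene centred on its own mean over the 4 arrays, as a description without a test. The measure grows with the spread of a gene over the arrays. Hapln4 was closest to Kcna2, an axonal potassium channel (0.0678), and to Kcnab2, a potassium channel subunit (0.0874). Ncan was closest to Cspg5, the neural proteoglycan neuroglycan C (0.0473), and then to Rtn4rl1, a Nogo receptor homologue (0.104). Hapln1 was closest to Sv2b (0.0552) and Fam20b (0.0607), and Bcan to Ptprd (0.0817) and Has1 (0.106). For Acan, whose levels spread widely over the arrays, the closest were Slc18a3, the vesicular acetylcholine transporter (0.283), and Kcnab2 (0.357). Only the brightest probe of each gene was used. That of Acan, ILMN_2645654, lay close to the detection limit. The other Acan probe, whose group difference had the opposite sign, was not compared in this way.

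Other genes were taken from 7 lists with 130 genes in all. Of these lists, 5 hold matrix genes and their enzymes, 1 receptors and ligands bound by nets and 1 genes of neurons that carry nets. Of the 130 genes, 118 were named on the array and 89 had a probe above background on at least 2 arrays. Each gene stands for its brightest such probe. None of the 89 passed limma's test (0% of 11476 named genes did), 42 were higher and 47 lower in the mean. An unadjusted p under 0.05 in limma was found for 7 (7.87%, against 3.24% of named genes), 2 of them genes of the neuron list. That count moved with the setting. It was 2 with a variance model without a trend, 4 with the mean of a gene's kept probes and 15 with the replicate number as a block. Over all probes the first and last of these settings moved the count from 663 to 758 and 1779. In 16 of them (17.98%) both conventional arrays were above both SPF arrays, against 16.3% of named genes, and in 15 (16.9%) both were below, against 15.2%. The median difference was -0.02 for the 89 genes, 0.17 for the 5 net genes measured (4 higher, 1 lower) and 0.00311 for all 11476 named genes. Of all named genes, 50.7% were higher. Acan counts as higher and Bcan as lower by the brightest probe. The other probe tested had the opposite sign for each, at -0.13 for Acan and 0.01 for Bcan.

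**Figure D4:**
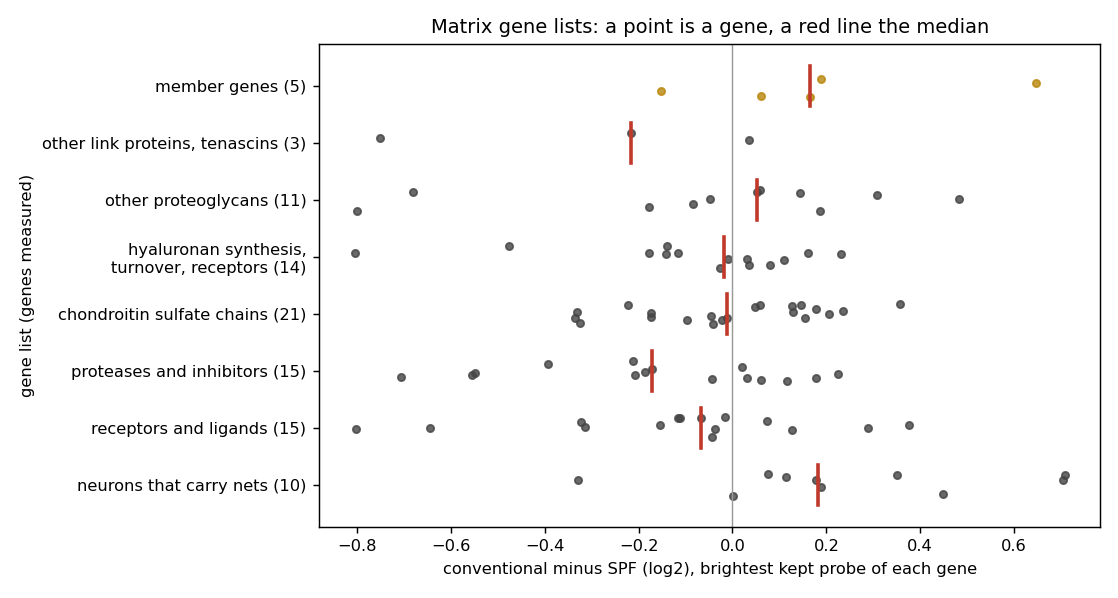
Difference between the groups (conventional minus SPF, log2) of the 5 measured net genes and of the genes of the 7 matrix and net-related lists. A point is the brightest kept probe of a gene, a red line the median of a list. List medians run from -0.22 (3 other link proteins and tenascins) to 0.18 (10 genes of neurons that carry nets), and 0 of the points passed the test over all probes.

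Among link proteins and tenascins, Hapln2, the link protein of nodes of Ranvier and the neighbour of Bcan, read 1766.7 and 2135.8 on the conventional arrays, against 2609.9 and 2046.2 on the SPF arrays. Its difference was -0.22 ± 0.17, and the groups overlapped. Hapln3, the neighbour of Acan, was at background on all 4 arrays. Tnc, the tenascin of developing and injured tissue, differed by 0.04 ± 0.43, and its probes disagreed in sign. Tnxb, the tenascin of fibrous connective tissue, read 177.2 and 166 on the conventional arrays, against 186.7 and 302.5 on the SPF arrays. Its difference was -0.75 ± 0.35, and SPF replicate 2 stood far above the other arrays. Tnxb was the 1 gene of the 3 measured (33.3%) with both conventional arrays below both SPF arrays, against 15.2% of named genes.

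Of 11 other chondroitin sulfate proteoglycan genes, 6 were higher and 5 lower, with a median of 0.05. Cspg4, which encodes NG2 of oligodendrocyte precursors and pericytes, read 178.4 and 163.8 on the conventional arrays, against 159.4 and 144.9 on the SPF arrays, and differed by 0.48 ± 0.25. Ptprz1, the gene of phosphacan, differed by 0.14 ± 0.16 and Cspg5 by 0.06 ± 0.21, each with a further probe of the opposite sign. Spock2, which encodes a secreted proteoglycan of the testican family, differed by 0.31 ± 0.13 (unadjusted p = 0.0415 in limma), and a further probe of it had the opposite sign. The small proteoglycan genes of fibrous tissue, Dcn and Bgn, differed by -0.80 ± 0.62 and -0.68 ± 0.27 (unadjusted p = 0.0388 in limma for Bgn).

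Genes that make, cut or bind hyaluronan gave 6 higher and 8 lower of 14, with a median of -0.02. Has1, the synthase gene of the family that was measured, differed by -0.01 ± 0.25, with signals of 141.2 and 161.1 on the conventional arrays, against 158.7 and 152.9 on the SPF arrays. Cd44, a hyaluronan receptor of glia and immune cells, differed by -0.48 ± 0.47 and Cemip, a hyaluronan-degrading protein gene, by 0.23 ± 0.29. Itih2, which encodes a heavy chain that is transferred onto hyaluronan, differed by -0.81 ± 0.70. Enzymes of chondroitin sulfate chains gave 10 higher and 11 lower of 21, with a median of -0.01. Both conventional arrays were below both SPF arrays in 2 of the 21 (9.52%), against 15.2% of named genes. They were above in 4 (19.0%), against 16.3%. An unadjusted p under 0.05 in limma was found for 0 of the 21. The sulfotransferase genes Chst3 and Chst7, which sulfate carbon 6 of the sugar, differed by -0.33 ± 0.20 and -0.34 ± 0.22, each with both conventional arrays below both SPF arrays. Chpf, a chain polymerizing factor gene, differed by 0.36 ± 0.22, with both conventional arrays above both SPF arrays. Chst11, which sulfates carbon 4, differed by 0.13 ± 0.21, but its deposited signals of 187.0 and 182.9 on the conventional arrays, against 175.3 and 187.8 on the SPF arrays, overlapped and a further probe had the opposite sign.

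Matrix proteases and their inhibitors gave 6 higher and 9 lower of 15, with a median of -0.17. Plat, tissue plasminogen activator, read 1472.3 and 1086.2 on the conventional arrays, against 2176.1 and 1618.8 on the SPF arrays, and differed by -0.56 ± 0.20 (unadjusted p = 0.0232 in limma). The metalloproteinase genes Mmp2 and Mmp14 differed by -0.71 ± 0.29 and -0.55 ± 0.23. Adamts4, an aggrecanase gene that cuts lecticans, differed by -0.04 ± 0.17 with overlapping groups. Receptors and ligands of nets gave 4 higher and 11 lower of 15, with a median of -0.07. The matrix glycoprotein genes Fn1 and Fbln1 differed by -0.80 ± 0.54 and -0.64 ± 0.59, and Nptx2, a secreted pentraxin that gathers at synapses on netted cells, by 0.38 ± 0.33.

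Several of the genes with negative differences above are also made by fibroblasts of the meninges. A list of 16 meningeal fibroblast markers, 14 of them measured and all 14 lower in the mean, had a median difference of -0.93. Both conventional arrays were below both SPF arrays in 1 of the 14 (7.14%), against 15.2% of named genes. The summed normalized signal of the list was 9839 and 3324 on the conventional arrays, against 6148 and 27361 on the SPF arrays. It was highest on SPF replicate 2, and conventional replicate 1 lay above SPF replicate 1. Dcn stands in both lists, and on the same arrays it read 1648.8 and 572.8 in the conventional group, against 970.7 and 2888.3 in the SPF group. Fbln1 read 1156.4 and 460.9 on the conventional arrays, against 674.5 and 1925.9 on the SPF arrays. The part of adhering meninges in the values of Tnxb, Dcn, Bgn, Mmp2, Fn1, Fbln1 and Itih2 was not tested.

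Genes of the neurons that carry nets gave 9 higher and 1 lower of 10, with a median of 0.18, where 50.7% of all 11476 named genes were higher. In 2 of the 10 (20%) both conventional arrays were above both SPF arrays, against 16.3% of named genes. The cholinergic genes Slc5a7, Slc18a3 and Chat, which mark motor neurons in the ventral horn, differed by 0.71 ± 0.25, 0.70 ± 0.24 and 0.45 ± 0.24. Slc18a3 read 498.2 and 691.4 on the conventional arrays, against 369.7 and 448.8 on the SPF arrays, with no overlap. Pvalb, the calcium buffer of fast-spiking interneurons, read 9120.6 and 11876 on the conventional arrays, against 7179.1 and 12598.4 on the SPF arrays, and differed by 0.19 ± 0.28. Pvalb is also a gene of fast skeletal muscle, whose list had 8 of 9 measured genes lower and a median of -0.86. Pvalb itself was the 1 gene of these 9 that was higher. Without Pvalb, the summed normalized signal of the other 8 genes was 722 and 464 on the conventional arrays, against 1938 and 635 on the SPF arrays. The part of muscle in the Pvalb values was not tested. Kcnc1, the potassium channel that lets these cells fire fast, differed by -0.33 ± 0.25. The mean log2 level of the 10 genes was 9.59 and 9.82 on the conventional arrays, against 9.31 and 9.61 on the SPF arrays. Of the 10 genes, 7 were higher on replicate 2 than on replicate 1 in both groups, 1 (Kcnc1) was lower in both and 2 were mixed. The part of these neurons in the Acan and Hapln4 levels was not tested, and in such bulk RNA fewer cells of a type and less RNA per cell cannot be told apart.

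Markers of the cord’s own cell types were present, with 9 of 9 astrocyte, 9 of 10 oligodendrocyte, 8 of 8 precursor and 5 of 8 neuronal genes measured, and median differences of 0.07, -0.08, -0.08 and 0.04. Microglial (7 measured), Schwann cell (5) and red blood cell (5) lists had medians of -0.29, -0.28 and -1.05, and the endothelial and pericyte list (10) a median of 0.29. Both conventional arrays were below both SPF arrays in 28.6%, 20% and 80% of the first 3 lists, against 15.2% of named genes. In the endothelial and pericyte list both were above in 60%, against 16.3%. Both were below in 22.2% of the oligodendrocyte list and 37.5% of the precursor list, and in 0% of the astrocyte and neuronal lists. Both were above in 22.2% of the astrocyte and 20% of the neuronal list, and in 0% of the oligodendrocyte and precursor lists. All 9 oligodendrocyte and 6 of 8 precursor genes were lower in the mean, while 6 of 9 astrocyte and 3 of 5 neuronal genes were higher. The part of glia, neurons, blood and vessels in the net gene levels was not tested. Because Acan and Hapln1 are also cartilage genes, cartilage markers were read beside them: 7 of 17 were measured, with a median of -0.18 and a summed normalized signal of 464.3 and 411.7 on the conventional arrays, against 503.4 and 514.8 on the SPF arrays. The defining cartilage gene Col2a1 was not above background on either conventional array with any of its 3 probes (97.2 to 116.2). On SPF replicate 1 it was above background with 2 of the 3 probes, at 135.6 and 121.4, and on SPF replicate 2 with none. Probes of Matn1, Matn3, Cnmd, Ucma and Epyc were at background on all 4 arrays. Of the 7 measured cartilage genes, 5 were lower and 2 higher in the mean. In 2 of them (28.6%), Col9a1 and Snorc, both conventional arrays were below both SPF arrays, against 15.2% of named genes. Col9a2 read 295.1 and 267.7 on the conventional arrays, against 301.4 and 333 on the SPF arrays. The part of cartilage in the Acan and Hapln1 levels was not tested.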

How the data were processed

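Per the file headers the deposited signals are linear intensity values that were not normalized, each with a detection p-value. A table of intensity values normalized by the authors was used only as an alternative. The submitters' processing notes name lumi. Its settings, the scanner software and a genome build are not given in the labels or headers. Names came from the platform annotation (34885 of 45281 probes with 1 symbol, 18 with several, 10378 with none). Gene numbers of 34807 probes were found in the RefSeq table of GRCm38.p6, which changed 0 symbols and served for names and neighbours only.

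The function neqc of limma 3.58.1 (R 4.3.3) removed background and applied quantile normalization, with background inferred from the detection p-values, an offset of 16 and log2. Probes with a detection p under 0.05 on at least 2 of 4 arrays were kept (21065), and each was fitted on its own with lmFit and eBayes with a trend. The fit was tried on simulated data with shifts of 4 log2 units only, which does not tell whether smaller differences would be found. The number of arrays limits the precision. Named genes are all 8 net genes, the 3 genes of each matrix or net-related list with the largest difference and 13 fixed genes, of which Adamts5 was not analysed here. Marker lists are given by counts, shares, sums and medians, apart from the named cartilage genes and genes that stand in a matrix list too. Others are marked as picked after seeing values, are those with an unadjusted p under 0.05 or are the genes closest to a net gene over the arrays. Members and lists were chosen with earlier results of these data known. Alternatives covered background, scaling, filter, probe choice, variance model, a replicate block and each array left out.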

Additional observations from a re-analysis of the deposited data

How the results depend on the processing

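Of the 7 net gene probes and the 89 genes of the matrix and net-related lists, 0 passed under any of the 15 other settings that gave a value. Over all probes 0 passed, except 14 with the replicate number as a block and 2 without conventional replicate 2. With 1 array left out in turn, the count over all probes ranged from 0 to 2 and that of net gene probes stayed at 0. Unadjusted values under 0.05 came up for Acan ILMN_2645654 without conventional replicate 1 and with the replicate block, for Bcan ILMN_2670486 without conventional replicate 2 and for Hapln4 without SPF replicate 2. The lowest adjusted p of a net gene probe in limma over these refits was 0.561, with the replicate block. Deviations of same-numbered arrays correlated at 0.217 over the 21065 probes. With only 2 pairs and no word on pairing in the labels, the numbers are not taken to pair the arrays.

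With 1 array left out, the lone array of a group is assumed to vary like the other group. The differences then ranged from -0.0424 to 1.34 (Acan ILMN_2645654), from -0.46 to 0.20 (Acan ILMN_2639818), from -0.45 to 0.15 (Bcan ILMN_2670486), from -0.20 to 0.21 (Bcan ILMN_2636745), from -0.26 to 0.38 (Ncan), from 0.04 to 0.29 (Hapln1) and from -0.10 to 0.48 (Hapln4). Bcan ILMN_2636745 also turned to -0.00155 with scaling to the 75th percentile and to -0.0157 with cyclic loess, and the cause was not tested. Of 98 differences under other settings, 12 had the opposite sign. Without background correction the Acan ILMN_2645654 difference was 0.25 and the Hapln1 difference 0.05. From the authors' normalized values they were 0.13 and 0.02. With a detection p under 0.01 asked on all 4 arrays, Acan and Hapln1 were no longer tested.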
